A study of Mus musculus with 8 samples.

Results

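Imprinted genes are transcribed mainly from the allele inherited from one parent, and many of them set the growth of the embryo. The 10 genes described here are H19, Igf2, Igf2r, Cdkn1c, Dlk1, Meg3, Peg3, Mest, Grb10 and Plagl1, chosen by symbol from 52778 listed features, and all 10 were abundant enough to be tested. They were compared in 4 control libraries and 4 libraries labelled Atf4 frameshift mutant, each made from the ventricles of mouse hearts collected on embryonic day 11.5. The mutants are homozygous for a loss of 7 bases from exon 3 of Atf4, made with CRISPR/Cas9. Atf4 encodes a stress-responsive transcription factor, and no treatment was given to either group. The genotype field reads C57BL/6 WT for both groups and the treatment field reads ATF4 global knockout for the mutants, so the groups were taken from the sample titles. The labels do not say whether a library holds 1 embryo or a pool, so p-values measure the spread between libraries.

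In such genes, methylation laid down in the egg or sperm marks 1 parental copy, and that mark decides which copy is read. IGF2 is the main growth ligand of the embryo and acts through the IGF1 and insulin receptors, while IGF2R carries it to the lysosome and CDKN1C stops the cell cycle. In the embryonic heart, IGF2 from the epicardium is known to stimulate division of the compact-layer cardiomyocytes. The values here are transcript totals and do not separate the parental alleles, so they report on expression and not on imprinting itself.

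None of the 10 genes passed the test between mutants and controls, a count of 0 (limma with Benjamini-Hochberg adjustment over 15545 genes), beside 0.0386% of all genes tested. The lowest adjusted p among them was 0.800, for Mest. At an unadjusted p below 0.05 the count was 1, again Mest, beside 6.10% of all genes tested. In none of the 10 did the mutant and control libraries separate completely, a count of 0 beside 3.68% of all genes tested. The log2 fold changes ran from -0.12 for Dlk1 to 0.11 for Mest, with 5 above and 5 below 0 and a median of -0.0014, against a median of -0.0033 over all genes tested. All 10 of the 95% intervals lay inside a change of 1.5-fold in either direction. The lowest bound was -0.29 (Dlk1) and the highest 0.21 (Mest) on the log2 scale. How many of all genes tested have an interval inside 1.5-fold was not counted, so this is not a trait particular to the 10.

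**Figure D1:**
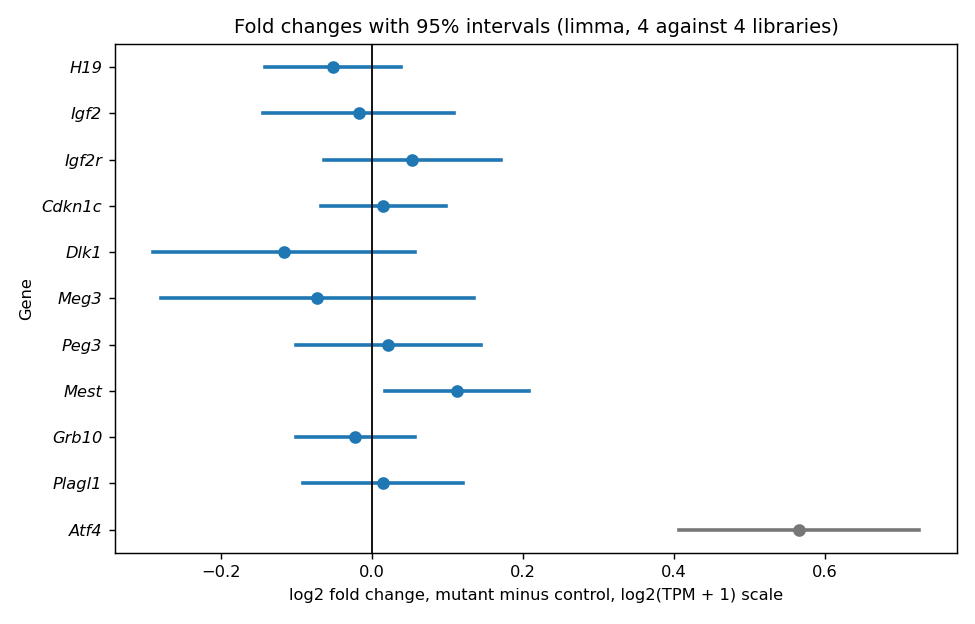
Log2 fold change (x axis, mutant minus control on the log2(TPM + 1) scale) of each imprinted gene and of Atf4 (y axis), with points for the estimate and lines for the 95% interval from limma over 4 against 4 libraries. The interval of Mest runs from 0.018 to 0.21, those of the other 9 imprinted genes include 0, and Atf4 stands at 0.57.

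The label was checked on the targeted gene, whose transcript keeps its polyadenylation signal. Atf4 (chromosome 15, bases 80255184 to 80257545 of GRCm38) held 105, 121, 115 and 105 TPM in control ventricles and 166, 164, 185 and 148 TPM in mutant ventricles. It rose by 0.57 on the log2 scale (standard error 0.071, limma adjusted p of 0.0430). The call was lost in 12 of 19 alternatives, 7 of them with 1 library left out. Over the 19 the limma adjusted p reached 0.354 and the log2 difference stayed between 0.51 and 0.62. A transcript level of this kind does not show whether the protein is lost, so the genotype rests on the titles. TPM is a transcript abundance scaled for transcript length and library size, and read depth cannot be recovered from it.

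The libraries were examined as a whole before the genes. Listed TPM summed to between 923473 and 949762 per library, and 15380 to 15584 features reached 1 TPM. The 10 cardiomyocyte markers, from Tnnt2 to Nkx2-5, summed to 31562 to 32927 TPM in control ventricles and 31465 to 33056 TPM in mutant ventricles. Nppa and Myl7, atrial genes of the adult heart, averaged 3060 and 3479 TPM beside 11301 TPM for Myl2, so the markers show heart muscle and do not separate ventricle from atrium. Epicardial, endothelial and cushion mesenchyme markers were present in every library at 303 to 345, 637 to 728 and 518 to 635 summed TPM. Of 8 hepatocyte markers, 6 stayed below 1 TPM in every library, Afp and Alb among them, and of 8 neuronal markers, 5 did. Erythroid markers summed to 3986 to 6763 TPM in control and 3727 to 5240 TPM in mutant ventricles (all 8 markers at 1 TPM or more in every library), and 8 macrophage markers to 11.6 to 21.4 and 8.07 to 12.0 TPM, with Adgre1 and Fcgr1 below 1 TPM in every library. The exact permutation p was 0.20 for the erythroid and 0.0571 for the macrophage list mean (0.686 and 0.457 adjusted over the 8 marker lists), and their part in the values below was not tested. Y-linked Ddx3y held 26.4 to 35.9 TPM and Xist at most 0.110 TPM, with no split by group. In bulk tissue, fewer cells of a type and less RNA per cell cannot be told apart.

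Several of these loci also hold microRNAs, small RNAs that pair with messenger RNAs through a seed at bases 2 to 8. The table lists 5 such microRNA features inside H19, Igf2, Mest and Meg3, and their 9 mature products are shown because the values of H19 and Meg3 below have to be read beside features of this kind. Sequences are those of RefSeq on GRCm38.p6, 5′ to 3′, with the seed in capitals.
miR-675-5p, in H19: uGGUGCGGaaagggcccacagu
miR-675-3p, in H19: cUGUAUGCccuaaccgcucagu
miR-483-5p, in Igf2: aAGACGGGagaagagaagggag
miR-483-3p, in Igf2: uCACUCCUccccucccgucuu
miR-335-5p, in Mest: uCAAGAGCaauaacgaaaaaugu
miR-335-3p, in Mest: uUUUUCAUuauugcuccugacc
miR-770-5p, in Meg3: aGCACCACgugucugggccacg
miR-770-3p, in Meg3: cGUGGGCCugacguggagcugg
miR-1906, in Meg3: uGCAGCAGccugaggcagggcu
The 9 seeds were all different, so no pair of these microRNAs shares a seed.

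The imprinted genes covered a wide range of levels. H19 was the eleventh most abundant of all listed features, with a mean of 7693 TPM over the 8 libraries. Mest followed at rank 22 (3675 TPM), Igf2 at 29 (3023 TPM), Cdkn1c at 51 (1525 TPM), Igf2r at 101 (1081 TPM) and Grb10 at 134 (797 TPM). Plagl1 stood at rank 257 (444 TPM), Peg3 at 514 (238 TPM), Meg3 at 2552 (57.4 TPM) and Dlk1 at 5777 (24.7 TPM). At each step of this order the lowest library of the higher gene lay above the highest library of the next, the closest pair in ratio being Mest (lowest 3429 TPM) and Igf2 (highest 3185 TPM). The order was therefore the same in all 8 libraries. Together the 10 genes held 1.97% ± 0.0380 of the listed TPM in control ventricles and 1.98% ± 0.0358 in mutant ventricles (SD, n = 4 each).

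**Figure D2:**
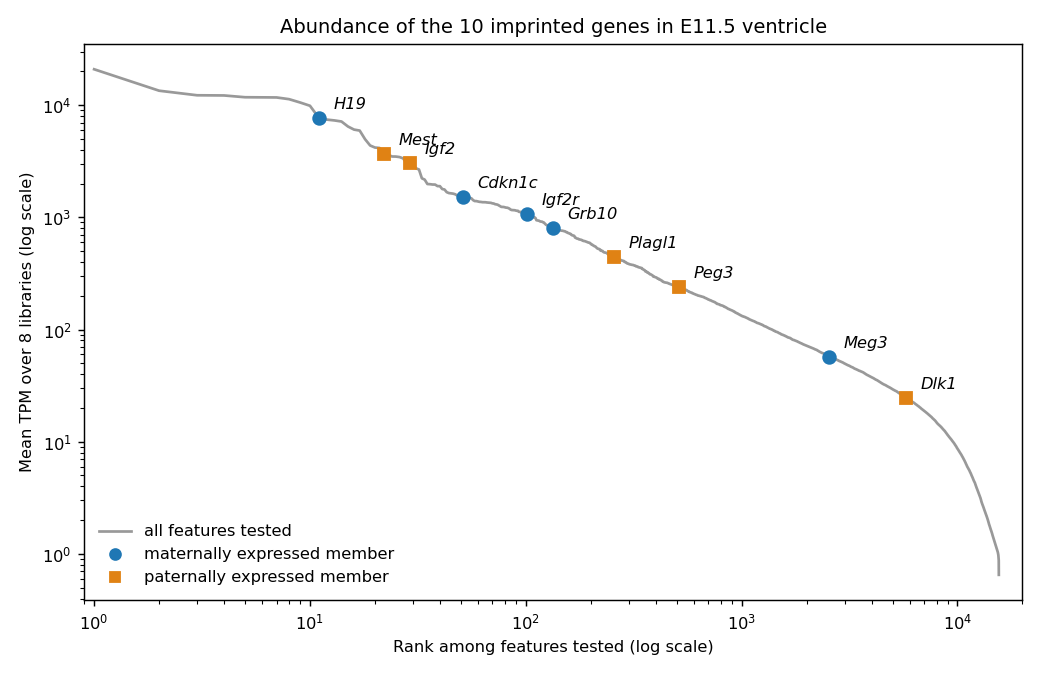
Mean TPM over the 8 libraries (y axis, log scale) against rank among the features tested (x axis, log scale), with the grey line for all features, blue circles for maternally and orange squares for paternally expressed imprinted genes. H19, Mest and Igf2 sit at ranks 11, 22 and 29, and Dlk1 at rank 5777.

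The growth ligand and its neighbour came first. Igf2, paternally expressed, lies on the minus strand of chromosome 7 from base 142650768 to 142666816. It held 2956, 3125, 2910 and 3168 TPM in control ventricles and 3119, 3013, 3185 and 2710 TPM in mutant ventricles. The highest and the lowest of the 8 values were both mutants, so the mutant range enclosed the control range. The means were 3040 ± 126 and 3007 ± 210 TPM (SD, n = 4 each), and the log2 fold change was -0.017, with a 95% interval from -0.14 to 0.11 (limma adjusted p of 0.984). The sign of this difference rested on single libraries: it was 0.0027 without control replicate 4 and 0.032 without mutant replicate 4.

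H19, a maternally expressed long non-coding RNA that shares enhancers with Igf2, lies on the same strand at bases 142575530 to 142578146. Its controls held 7833, 7837, 7912 and 7728 TPM and its mutants 7580, 7486, 7841 and 7326 TPM. Of the mutant libraries, 3 of 4 lay below every control, and mutant replicate 3 lay above 3 of the controls. The means were 7828 ± 75.8 and 7558 ± 216 TPM (SD, n = 4 each). The difference was -0.051 on the log2 scale (95% interval -0.14 to 0.039, limma adjusted p of 0.904). H19 exceeded Igf2 by 2.58 ± 0.128 times in control ventricles and 2.52 ± 0.124 times in mutant ventricles (SD, n = 4 each). This ratio was lowest in mutant replicate 1, at 2.43, and highest in control replicate 3, at 2.72.

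IGF2R, the receptor that removes IGF2, is maternally expressed from the minus strand of chromosome 17, bases 12682406 to 12769706. Igf2r held 1056, 1106, 993 and 1087 TPM in control ventricles and 1189, 1084, 1111 and 1020 TPM in mutant ventricles. In the mutants 2 libraries lay above every control and none below, and the log2 fold change was 0.053 (95% interval -0.064 to 0.17, limma adjusted p of 0.929). Igf2 was 2.87 ± 0.0649 times as abundant as its receptor in control ventricles and 2.73 ± 0.112 times in mutant ventricles (SD, n = 4 each), with the lowest value, 2.62, in mutant replicate 1 and the highest, 2.93, in control replicate 3.

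GRB10 is an adaptor protein that dampens insulin and IGF receptor signalling. Grb10 (chromosome 11, bases 11930499 to 12037428, minus strand) held 815, 810, 776 and 813 TPM in control ventricles and 828, 796, 758 and 785 TPM in mutant ventricles. The highest and the lowest value were mutants, and the log2 fold change was -0.021 (95% interval -0.10 to 0.058, limma adjusted p of 0.962). Grb10 is maternally expressed in most tissues outside the nervous system.

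CDKN1C, also called p57, binds cyclin-dependent kinases and halts cells in G1. Cdkn1c is maternally expressed from chromosome 7, bases 143458339 to 143461059, minus strand. Its control libraries lay close together at 1506, 1522, 1515 and 1524 TPM, while the mutants held 1478, 1552, 1487 and 1620 TPM. Of the mutants, 2 lay above and 2 below the whole control range, so the means, 1517 ± 8.08 and 1534 ± 65.9 TPM (SD, n = 4 each), differed by 0.016 on the log2 scale (95% interval -0.067 to 0.098, limma adjusted p of 0.975). Without mutant replicate 4 the difference was -0.011.

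The Dlk1 to Dio3 cluster on chromosome 12 supplied the least abundant members. DLK1, a paternally expressed membrane ligand related to Notch ligands, restrains differentiation in several tissues. Dlk1 (bases 109452485 to 109463336, plus strand) held 25.4, 26.4, 25.0 and 25.8 TPM in control ventricles and 25.1, 21.4, 27.2 and 21.2 TPM in mutant ventricles. Mutant replicates 2 and 4 lay below every control and mutant replicate 3 above every control. The log2 fold change of -0.12 (95% interval -0.29 to 0.058, limma adjusted p of 0.888) was within the replicate spread, and it moved to -0.067 without mutant replicate 4 and to -0.18 without mutant replicate 3, where its unadjusted limma p was 0.0227.

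Meg3, a maternally expressed long non-coding RNA of the same cluster (bases 109540996 to 109571729, plus strand), held 54.9, 57.1, 59.8 and 62.9 TPM in control ventricles. Its mutants held 60.2, 63.9, 54.5 and 46.0 TPM, from above the highest to below the lowest control. The log2 fold change was -0.072 (95% interval -0.28 to 0.13, limma adjusted p of 0.947), and without mutant replicate 4 it was 0.019. Meg3 exceeded Dlk1 by 2.29 ± 0.146 times in control ventricles and 2.39 ± 0.432 times in mutant ventricles (SD, n = 4 each). Rian, the maternally expressed non-coding RNA that follows Meg3 on the strand, was at 114 ± 4.31 and 113 ± 6.78 TPM (SD, n = 4 each).

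MEST is a paternally expressed protein of the alpha/beta hydrolase family whose loss restricts growth. Mest (chromosome 6, bases 30733506 to 30748466, plus strand) held 3517, 3722, 3459 and 3429 TPM in control ventricles and 3943, 3648, 3874 and 3810 TPM in mutant ventricles. All 4 mutants exceeded the control mean and 3 of the 4 exceeded every control, but mutant replicate 2 lay below control replicate 2. The means were 3532 ± 132 and 3819 ± 126 TPM (SD, n = 4 each). Their difference of 0.11 on the log2 scale (standard error 0.042, 95% interval 0.018 to 0.21) had an unadjusted limma p of 0.0249 and an adjusted p of 0.800, and it stayed between 0.097 and 0.14 when any 1 library was left out. The unadjusted p was above 0.05 in 4 of those 8 fits, at 0.0631 without control replicate 3, 0.0721 without control replicate 4, 0.0615 without mutant replicate 1 and 0.0573 without mutant replicate 3. It was 0.0505 without the filter on low values.

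The zinc-finger proteins completed the set. PLAGL1, also called ZAC1, is a transcription factor known to regulate other imprinted genes, H19 and Igf2 among them. Plagl1 (chromosome 10, bases 13090832 to 13131694, plus strand) held 434, 449, 437 and 443 TPM in control ventricles and 482, 454, 439 and 409 TPM in mutant ventricles. The mutants again spanned more than the controls, 2 above and 1 below the control range, and the log2 fold change was 0.015 (95% interval -0.091 to 0.12, limma adjusted p of 0.984). Without mutant replicate 1 it was -0.024.

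PEG3 is a paternally expressed zinc-finger protein that acts in growth and maternal behaviour. Peg3 (chromosome 7, bases 6703892 to 6730462, minus strand) held 245, 232, 219 and 247 TPM in control ventricles and 256, 248, 233 and 221 TPM in mutant ventricles. Of the mutants, 2 lay above every control and 0 below, with a log2 fold change of 0.022 (95% interval -0.10 to 0.14, limma adjusted p of 0.976). It was -0.012 without control replicate 3 and -0.010 without mutant replicate 1.

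**Figure D3:**
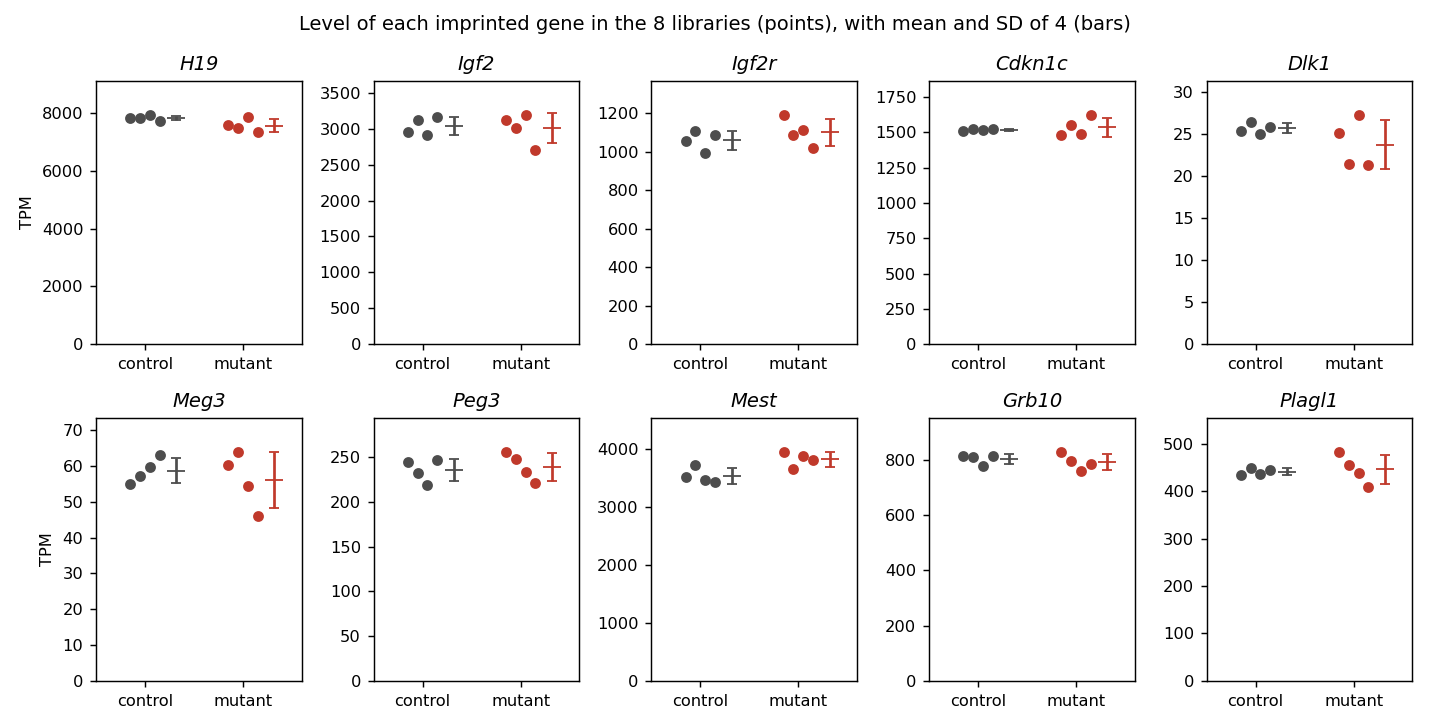
TPM (y axes, each starting at 0 with its own scale) of the 10 imprinted genes in the control (grey) and mutant (red) libraries; points are single libraries in replicate order and bars give the mean and SD of 4. The groups overlap in every panel, and the mutants of Cdkn1c, Dlk1 and Plagl1 spread more widely than their controls.

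By parental origin, the 5 maternally expressed genes (H19, Igf2r, Cdkn1c, Meg3, Grb10) had a median log2 fold change of -0.021 and the 5 paternally expressed genes (Igf2, Dlk1, Peg3, Mest, Plagl1) one of 0.015. Their ranges, -0.072 to 0.053 and -0.12 to 0.11, overlapped.

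Features that share bases with the imprinted genes were then listed, since how reads in shared bases were assigned is not stated in the sources used here. Mir675 (84 bases) lies in an exon of H19 in 3 of 4 GENCODE M21 transcripts that span it and was listed at 9987 ± 104 TPM in control ventricles and 9758 ± 244 TPM in mutant ventricles (SD, n = 4 each). Its ratio to H19 stayed between 1.27 and 1.31 in the 8 libraries, and its log2 fold change of -0.034 (limma adjusted p of 0.943) was close to that of H19. Adding both values gave a log2 fold change of -0.041 for the sum. TPM is scaled for length, so this sum does not recover reads shared between the 2 features. Mir1906-1 (80 bases), exonic in all 5 spanning Meg3 transcripts, was listed at 2.42 to 3.22 times the value of Meg3. It averaged 178 ± 2.30 TPM in control ventricles and 157 ± 15.6 TPM in mutant ventricles (SD, n = 4 each), with a log2 fold change of -0.18 (unadjusted limma p of 0.0161, adjusted p of 0.780).

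The remaining microRNA features, which lie in introns of all or most spanning transcripts, were low. Mir483, inside introns of all 7 spanning Igf2 transcripts, was listed at 10.8, 16.6, 13.2 and 9.80 TPM in control ventricles and 14.6, 18.3, 18.1 and 14.1 TPM in mutant ventricles. The groups overlapped through control replicate 2, and the log2 fold change of 0.36 had an unadjusted limma p of 0.0379 and an adjusted p of 0.809. Mir335, in introns of all 7 spanning Mest transcripts, averaged 5.73 ± 1.36 and 6.49 ± 0.960 TPM, and Mir770, in an exon of 1 of 4 spanning Meg3 transcripts, 4.29 ± 1.72 and 3.88 ± 0.248 TPM (SD, n = 4 each). These values come from long-RNA libraries and do not measure mature microRNAs.

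**Figure D4:**
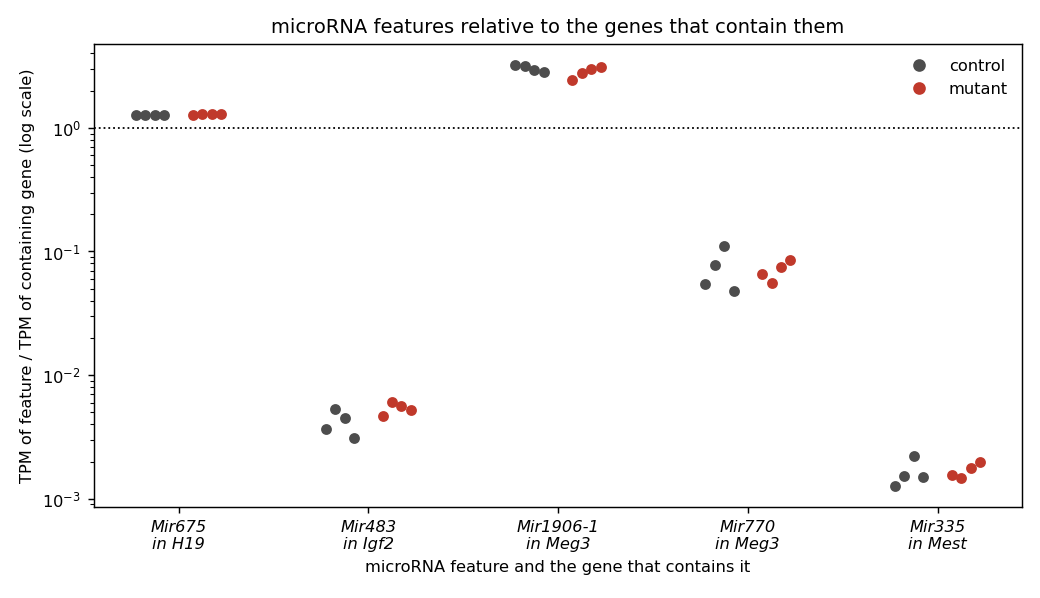
Ratio of the TPM of each microRNA feature to that of the gene that contains it (y axis, log scale; the dotted line marks equal values), for 5 features (x axis) in the control (grey) and mutant (red) libraries, 1 point per library. Mir675 and Mir1906-1 lie above their genes in all 8 libraries and Mir483, Mir335 and Mir770 below them.

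Antisense and nested transcripts were lower than the genes they overlap. Airn, the paternally expressed antisense RNA that silences the paternal Igf2r copy, held 95.8, 67.7, 80.7 and 101 TPM in control ventricles and 91.7, 106, 60.8 and 98.6 TPM in mutant ventricles. It varied more between libraries than Igf2r did, with a residual SD of 0.311 against 0.0803 on the log2 scale, and its log2 fold change was 0.033 (limma adjusted p of 0.993). Igf2os, antisense to Igf2, averaged 31.6 ± 1.84 and 31.9 ± 2.05 TPM (SD, n = 4 each). Copg2, whose end overlaps that of Mest on the opposite strand, averaged 188 ± 20.4 and 197 ± 17.7 TPM (SD, n = 4 each). Hymai, at the start of Plagl1, averaged 12.9 ± 0.541 and 12.4 ± 0.824 TPM, and LOC102631979, within Grb10, 38.2 ± 1.87 and 35.7 ± 1.94 TPM (SD, n = 4 each). Rtl1, opposite Meg3, averaged 2.03 ± 0.181 and 1.85 ± 0.114 TPM, and Peg3os was listed at 0. None of these features passed the limma test, a count of 0 beside 0.0386% of all genes tested. None had an unadjusted p below 0.05, beside 6.10% of all genes tested.

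A list of 54 further genes known to be imprinted in at least some tissues gave the wider setting. Whether each is imprinted in the embryonic heart was not tested. Of the 54 genes, 52 were matched and 39 were tested, and 0 passed the limma test beside 0.0386% of all genes. At an unadjusted p below 0.05, 1 was higher and 2 were lower, 3 of 39 beside 6.10% of all genes. The groups separated in 2 of 39, beside 3.68% of all genes. On the log2 scale their median difference was -0.013, with 13 above and 26 below 0, where all genes tested had 7490 above and 8055 below. Commd1, a regulator of copper transport and NF-kappaB, had the smallest p of the list. Its controls held 107, 105, 105 and 103 TPM and its mutants 93.8, 95.4, 98.6 and 99.7 TPM, with all mutants below all controls. The log2 fold change was -0.12 (standard error 0.032, unadjusted limma p of 0.00489, adjusted p of 0.720).

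Other genes of that list were named by the smallest p in each direction. Peg12 was higher in all mutants, at 6.41 ± 0.315 TPM in control ventricles and 7.37 ± 0.535 TPM in mutant ventricles (log2 fold change 0.17, limma adjusted p of 0.809). Impact, an inhibitor of the kinase GCN2 that lies upstream of ATF4, held 24.9, 16.7, 22.4 and 23.3 TPM in control ventricles and 24.3, 26.5, 29.0 and 22.8 TPM in mutant ventricles, with a log2 fold change of 0.23 (limma adjusted p of 0.841) and overlapping groups. Nnat, a small membrane protein gene, averaged 116 ± 11.5 and 103 ± 4.67 TPM, Osbpl5 28.3 ± 0.648 and 26.5 ± 2.09 TPM, and Snurf 39.3 ± 0.436 and 41.7 ± 1.5 TPM (SD, n = 4 each). Snrpn, which spans Snurf on the same strand, had a log2 fold change of -0.13 (limma adjusted p of 0.975). It held 37.9, 19.7, 38.8 and 38.2 TPM in control ventricles and 19.6, 43.2, 21.6 and 42.1 TPM in mutant ventricles. Its means were 33.65 ± 9.28 TPM in control and 31.6 ± 12.8 TPM in mutant ventricles (SD, n = 4 each). Both groups held libraries at the low and at the high end of this range, so no direction is read from the difference. Within the clusters, the Cdkn1c neighbours Phlda2 and Slc22a18 averaged 0.904 and 0.555 TPM and were not tested, Kcnq1 had a log2 fold change of -0.12, and Kcnq1ot1, the non-coding RNA that silences this domain on the paternal copy, one of -0.0022. Ins2, beside Igf2, and Dio3, at the end of the Dlk1 cluster, stayed near 0. Zim1, beside Peg3, averaged 27.8 ± 2.11 and 30.9 ± 3.66 TPM (SD, n = 4 each). Usp29, 97 bases from Peg3, averaged 2.29 ± 0.972 and 2.29 ± 1.69 TPM (SD, n = 4 each), with a log2 fold change of -0.12. In the domain around Igf2 and Cdkn1c, the log2 fold changes were -0.014 for Nap1l4, -0.044 for Cd81, -0.013 for Tssc4, 0.076 for Tspan32 and -0.0078 for Tnfrsf23. Mirg, in the Dlk1 cluster, stood at -0.13 and Klf14, beyond Mest, at -0.091. Slc22a2 and Slc22a3, beside Igf2r, and Ascl2 averaged 0.0156, 0.387 and 0.217 TPM and were not tested.

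A list of 33 genes related to IGF signalling was read, of which 29 were tested. Of these, 0 passed the limma test, beside 0.0386% of all genes. Beside receptors and signalling genes it holds Igf1, Igf2bp1, Igf2bp2, Igf2bp3, Hmga2, Lin28b and the metabolic kinase gene Pdk1. Its counts and median therefore do not stand for the steps downstream of IGF2 alone. The median log2 fold change was 0.041, with 20 above and 9 below 0, beside 7490 and 8055 over all genes. An unadjusted p below 0.05 was found for 1 of 29, beside 6.10% of all genes. That gene was Hmga2, a chromatin protein known to activate Igf2bp2, at 110 ± 6.04 TPM in control ventricles and 120 ± 5.98 TPM in mutant ventricles (SD, n = 4 each). Its log2 fold change was 0.12 (unadjusted limma p of 0.0367, adjusted p of 0.809). The RNA-binding proteins of Igf2 messenger RNA followed, Igf2bp2 with a log2 fold change of 0.098 and Igf2bp3 with one of 0.090 (limma adjusted p of 0.843 for both). Igf1, the related ligand, averaged 26.8 ± 1.12 TPM in control ventricles and 25.2 ± 0.938 TPM in mutant ventricles (log2 fold change -0.085, limma adjusted p of 0.847). The kinase gene Pdpk1 and the adaptor gene Irs1 had log2 fold changes of -0.060 and -0.057.

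The imprint maintenance list held 25 genes, among them genes that set or remove imprints, such as Kdm1b, Dnmt3a and Tet1. Of the 25 genes, 23 were tested and 0 passed the limma test, beside 0.0386% of all genes. The count at an unadjusted p below 0.05 was 0, beside 6.10% of all genes. The median log2 fold change was 0.023. ZFP57, which binds methylated imprint control regions, and CTCF, which insulates Igf2 from the shared enhancers on the maternal copy, had transcripts with log2 fold changes of -0.076 and -0.082 (limma adjusted p of 0.862 and 0.927). Zfp445 stood at -0.042, and Kdm1b, Uhrf1 and Dnmt3a at 0.085, 0.071 and 0.12. In Kdm1b, 1 of 23 beside 3.68% of all genes, all 4 mutants lay above all 4 controls, at 12.4 ± 0.279 against 11.7 ± 0.175 TPM (SD, n = 4 each, limma adjusted p of 0.854).

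The 12 genes listed beside CDKN1C for the G1 step were all tested. Of these 12 genes, 0 passed the limma test, beside 0.0386% of all genes. The count at an unadjusted p below 0.05 was 0, beside 6.10% of all genes. Their median difference was 0.0099 on the log2 scale. Rb1, the retinoblastoma gene, had the lowest value at -0.21 (10.3 ± 0.732 against 8.89 ± 1.47 TPM, SD, n = 4 each, limma adjusted p of 0.841). The related inhibitors Cdkn1a and Cdkn1b had log2 fold changes of 0.086 and -0.062, and the kinases Cdk4 and Cdk2 of 0.030 and -0.022. Ccne1, for cyclin E, stood at 0.036.

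**Figure D5:**
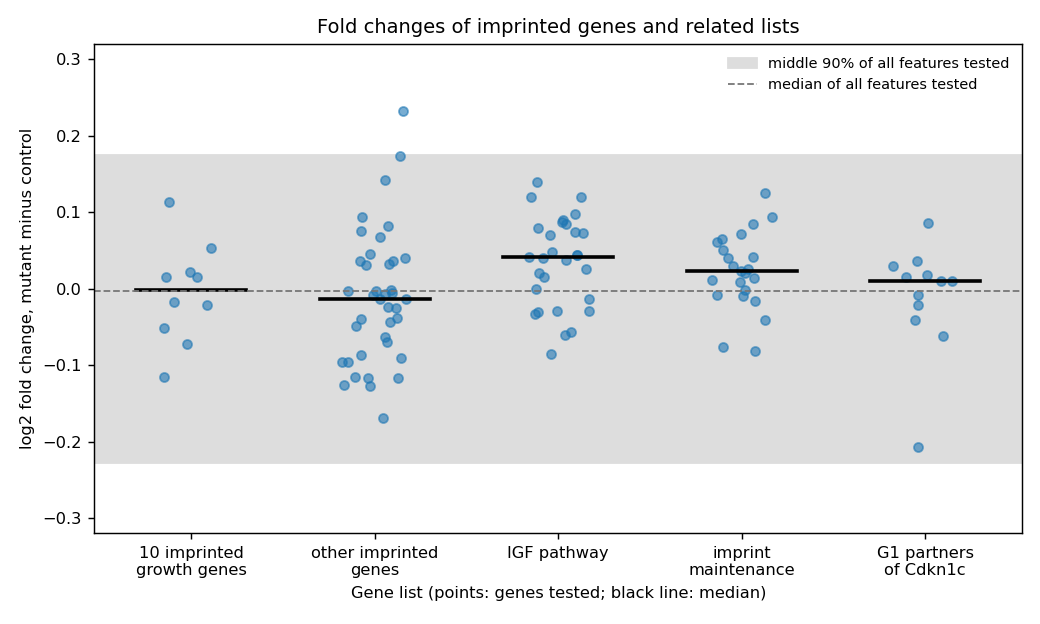
Log2 fold change (y axis, mutant minus control) of each gene tested in the imprinted growth genes and in 4 related lists (x axis), 1 point per gene with the black line at the median; the grey band spans the middle 90% of all features tested, -0.23 to 0.17, and the dashed line their median. The 10 imprinted growth genes all lie inside the band.

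The residual SD of the imprinted genes between libraries ran from 0.031 (H19) to 0.16 (Meg3) on the log2 scale, and 8 of the 10 lay below the median of all genes tested, 0.103. The 2 above it, Meg3 and Dlk1, were also the least abundant, and the part of abundance was not tested. The medians of the imprint maintenance and G1 lists, 0.066 and 0.075, lay below 0.103 as well. With the group means taken off, the 45 pairs of members had Pearson correlations over the 8 libraries from -0.83 (Cdkn1c with Dlk1) to 0.83 (Igf2 with Igf2r), with a median of 0.30. The points share libraries and scaling, so these values are a description. Among 11620 genes with a mean of at least 5 TPM, those most like Igf2 over the 8 libraries were Csnk1d (Pearson r = 0.99, Spearman rho = 0.98), Ltbp4 (0.99 and 0.93) and 2900026A02Rik (0.99 and 0.98). Those most like H19 were Slc37a3 (0.97 and 0.95), Sox4 (0.97 and 0.86) and Selenbp1 (0.97 and 0.83). Without the 2 libraries farthest from the median of H19, its values with these genes fell to between 0.78 and 0.87 (Pearson r). The same step for Igf2 gave 0.95 to 0.99 with its own 3 genes. All of them were picked as the highest of 11620, and how high such a search reaches by chance was not tested.

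Promoter windows, 250 bases before to 50 after a RefSeq start on GRCm38.p6, were searched on both strands for TGATGNAA, the core of the element that ATF4 binds with C/EBP partners. The table held 15 windows of 8 members, not of H19 or Cdkn1c. Of the 15 windows 0 held a match, and 3.97% of all 32851 windows in the table did. This says only that these letters are not in these windows.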

How the data were processed

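The deposited values are TPM in 1 table with a column per library, as the authors made them. Per the submitters' processing notes the tools included Trim Galore 0.6.7, HISAT2 2.2.1, StringTie 2.2.1 and featureCounts, with build GRCm38 (mm10). Which tool gave the TPM, the annotation and the strand setting are not given in the sources used here. The labels disagree on library preparation: the design text names a stranded poly(A) kit, and the sample protocol names ribosomal RNA depletion and cultured cortical neurons. All 10 members had the RefSeq GRCm38.p6 start and end, and 3 further rows of members on alternative or patch sequences were listed at 0.

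Values were analysed as log2(TPM + 1), on which fold changes of low genes are understated, without further scaling. The filter asked for 1 TPM or more in 4 or more libraries. The groups were compared with limma 3.58.1 in R 4.3.3, using a variance trend, no covariate, two-sided p-values and Benjamini-Hochberg adjustment at 0.05. On simulated data with the spread of the 15545 genes, 200 genes were changed in each of 3 runs. A log2 change of 0.1, near the largest seen in a member, was recovered in 0% of changed genes. One of 0.2 was recovered in 0.167%, one of 0.3 in 30.0%, one of 0.5 in 66.7% and one of 1 in 92.7%. False calls numbered 10 at 0.3, 16 at 0.5 and 32 at 1. The measured data gave 6 calls, and recovery depends on how many genes change. The changed genes were drawn at random from all 15545. Of the 10 members, 8 had a residual SD below the median of all genes tested, so the recovery rates are not rates for the members. Marker lists were compared as mean log2(TPM + 1) per library by two-sided exact permutation over 70 assignments, with a smallest p of 0.0286. Summaries and plots used matplotlib 3.10.9, scipy 1.17.1, numpy 2.4.6 and pandas 2.3.3 under Python 3.11.15.

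Members, gene lists and alternatives were chosen with earlier results of these data known. Named are all members, Atf4, features that overlap members, imprinted genes beside them, and in each other list up to 3 genes per direction with the smallest p and at least 1 TPM. Snrpn is named because it spans Snurf. For H19 and Igf2, the 3 genes most alike were named. Nespas and Zfp264 were not matched. Alternatives covered the pseudocount, filter, scaling, variance model, the replicate block and each library left out.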

Additional observations from a re-analysis of the deposited data

Results flagged for a closer look

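Groups of 4 libraries were examined 108 times, over named genes with at least 1 TPM (not Snrpn) and the marker lists. The search was for 1 library set apart from its group by a gap that fills most of the whole range (Dixon criterion). This happened 3 times, against 5.4 by chance at the 5% rate. Grb10 stood at 776 TPM in control replicate 3, below the 810 to 815 TPM of its group. Hymai stood at 12.1 TPM in control replicate 4, below 13.2 to 13.3 TPM. Igf2bp2 stood at 82.9 TPM in mutant replicate 4, below 92.4 to 93.7 TPM.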

How the results depend on the processing

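No member passed the limma threshold under any of the 19 alternatives, and the lowest adjusted p of any member was 0.694. Of the 181 values of members under an alternative, 7 had the opposite sign, all with 1 library left out. The ranges over the 8 fits with 1 library left out were -0.069 to -0.036 for H19, -0.046 to 0.032 for Igf2, 0.016 to 0.089 for Igf2r, -0.011 to 0.033 for Cdkn1c and -0.18 to -0.067 for Dlk1. They were -0.14 to 0.019 for Meg3, -0.012 to 0.060 for Peg3, 0.097 to 0.14 for Mest, -0.043 to -0.0011 for Grb10 and -0.024 to 0.055 for Plagl1. The cause of the changes of sign was not tested. Quantile normalization moved Igf2 from -0.017 to -0.089, H19 from -0.051 to -0.021 and Peg3 from 0.022 to 0.0065. Library weights moved Meg3 from -0.072 to -0.048, and rescaling without mitochondrially encoded and haemoglobin genes moved Plagl1 from 0.015 to 0.0094. The other 4 lists had 0 genes past the threshold in all settings run. With the replicate block, 0 members were called and Mest stood at 0.11. Same-numbered libraries did not deviate together over all genes (correlations from -0.082 to 0.035), and 2 of 8 libraries correlated best with their own number. No pairing by number was seen, but correlations of this kind cannot exclude one. The block took the count over all genes from 6 to 0, as did no filter and no variance trend. Leaving out 1 library gave 0 (without control replicate 2, 3 or 4) to 3 calls.

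The 8 marker lists gave no exact permutation p below 0.05, the lowest being 0.0571 for macrophage markers (difference of -0.41, adjusted p of 0.457). With 1 library left out the difference ranged from -0.50 to -0.32 for macrophage markers (exact permutation p of 0.0286 without control replicate 4, the smallest such a design gives) and from -0.39 to -0.16 for erythroid markers. It ranged from 0.014 to 0.049 for cardiomyocyte, -0.0085 to 0.038 for endocardial and endothelial, -0.046 to 0.0052 for epicardial, -0.043 to 0.055 for cushion mesenchyme, 0.00060 to 0.050 for hepatocyte and -0.049 to 0.0019 for neuronal markers. Depth is unknown, so no counting limit can be given.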

Other observations

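The spread within groups was compared as a description. In 9 of the 10 imprinted genes, all except Mest, the SD of log2(TPM + 1) was higher among the mutants than among the controls, beside 52.3% of all genes tested. With 1 library left out the number was between 8 and 10, being 8 without mutant replicate 1 or mutant replicate 4 and 10 without mutant replicate 3. The genes share the same 8 libraries and are not independent, so no test was made. Coefficients of variation of Cdkn1c were 0.533% in control and 4.30% in mutant ventricles, the widest ratio, while those of Peg3 were 5.42% and 6.49%, of Igf2r 4.66% and 6.32%, and of Grb10 2.29% and 3.65%.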
